A study of Mus musculus with 6 samples.

Results

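The aquaporins of the kidney and the genes that work with them to concentrate urine were followed in kidneys that had been through a shorter or a longer ischaemia. The genes were taken as the rows of the deposited read-count table named Aqp1, Aqp2, Aqp3, Aqp4, Aqp7, Avpr2, Slc14a2, Slc5a3, Akr1b3 and Nfat5, which are 10 of its 35275 genes. The table holds poly-A RNA sequencing of whole kidney from wild-type C57Bl/6 mice. Blood flow to the kidney had been interrupted and let return (ischaemia-reperfusion injury), and tissue was collected on day 28. Ischaemia had lasted 20 min in 3 kidneys (mild injury, libraries 7, 8 and 9) and 35 min in 3 kidneys (severe injury, libraries 13, 14 and 15). No uninjured kidney was analysed here, and every comparison sets 35 min against 20 min. The labels do not say whether the kidneys came from separate animals, and p-values then measure only the spread between these samples, which may be technical.

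The kidney concentrates urine by holding a salt and urea gradient in its medulla and letting water leave the tubule along it. Water leaves the proximal tubule and the thin descending limb through the always open channel Aqp1, and leaves the collecting duct only when vasopressin acts on the receptor Avpr2, which places Aqp2 in the apical membrane. Aqp3 and Aqp4 let that water out on the basolateral side, urea follows through transporters encoded by Slc14a2, and cells of the salty medulla keep their volume with osmolytes under the control of the transcription factor Nfat5.

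No member passed the test between severe and mild kidneys. Of the 9 members with enough counts to be tested, 8 had a negative fold change and Nfat5 a positive one; with library totals in place of TMM scaling, Aqp2, Aqp4 and Akr1b3 turned to just above 0. By the edgeR quasi-likelihood test, 0 of the 9 passed an adjusted p of 0.05 (Benjamini-Hochberg over 14883 genes), in a table where 0.0134% of genes did, 0.00672% in each direction. At an unadjusted p under 0.05 there were also 0 of the 9, against 23.7% of all tested genes (7.89% lower and 15.8% higher). The median log2 fold change of the 9 was -0.29, and that of all tested genes was 0.000194. Without library 14 the median of the 9 was -0.14, and with library totals it was -0.13, where that of all genes was 0.17. In 2 of the 9, Aqp1 and Aqp7, every severe library lay below every mild library. Over all tested genes the groups did not overlap in 34.0%, with the severe kidneys lower in 16.1% and higher in 17.9%, a split that became 6.61% and 29.2% with library totals. Under other settings 0 members passed where 0.00672% (library totals), 0.644% (no filter), 0.0142% (at least 1 CPM in 3 libraries), 7.87% (DESeq2), 3.33% (without library 14) or 0.00664% (without library 15) of all genes did. With sample quality weights in limma-voom, Aqp3 and Slc5a3 passed as lower, in a fit where 33.9% of all genes passed.

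The libraries held 15240491 to 17730967 gene counts. Severe libraries differed more from one another than mild ones did, and library 14 stood farthest from the mild libraries. The summed level of 6 injured-tubule markers, in CPM (read counts divided by the TMM-scaled library size, as edgeR gives them), was 1769 to 2357 in mild libraries and 2467, 9042 and 4757 in severe libraries 13, 14 and 15. Spp1 made up most of it, with 1659 to 2190 CPM in mild libraries and 2294, 8256 and 4368.5 CPM in the severe ones. The severe values were all above the mild ones in 3 of the 6 markers (50%) and all below in 0, against 17.9% and 16.1% of all tested genes. The 12 proximal tubule markers summed to 18974 to 20619 CPM in mild libraries and to 17368, 9256 and 15132 CPM in the severe ones. None of the kidney cell markers looked for was at 0 in all libraries. In whole-kidney RNA, fewer cells of a type and less RNA per cell cannot be told apart.

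**Figure D1:**
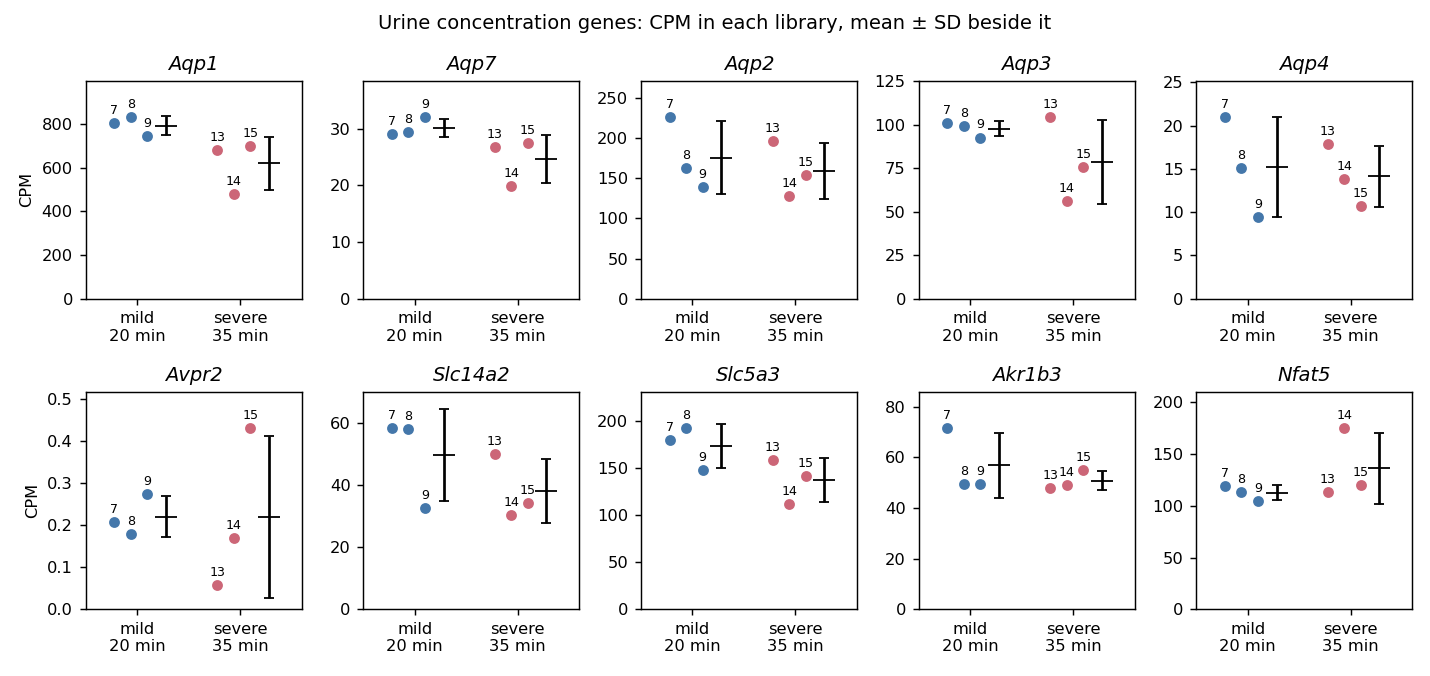
CPM of the 10 genes (y axis, from 0) in mild libraries 7, 8 and 9 (blue) and severe libraries 13, 14 and 15 (red), with the mean and SD of each group in black. The groups are apart for Aqp1 and Aqp7 and overlap for the other genes.

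Aqp1, the water channel of the proximal tubule and thin descending limb, had the highest level of the members. It (ENSMUSG00000004655, plus strand of chromosome 6 from 55336432 to 55348555, mm10) stood at 802, 829.9 and 745 CPM in mild libraries 7, 8 and 9 and at 681, 479 and 699 CPM in severe libraries 13, 14 and 15. Each severe value was below each mild one, and library 14 was the lowest. The mean was 792 ± 43.5 CPM in the mild and 619.7 ± 122 CPM in the severe group (SD, n = 3 each), and the log2 fold change was -0.35 ± 0.18 (SE) with a 95% interval from -0.76 to 0.0522 (edgeR adjusted p = 0.250). Without library 14 the log2 fold change was -0.20 (edgeR adjusted p = 0.183).

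Aqp7, a channel for water and glycerol of the late proximal tubule (ENSMUSG00000028427, minus strand of chromosome 4 from 41033074 to 41048139), also had every severe library below every mild one, with library 14 the lowest. It stood at 29.1, 29.4 and 32.0 CPM in mild libraries 7, 8 and 9 and at 26.8, 19.8 and 27.4 CPM in severe libraries 13, 14 and 15. Its log2 fold change was -0.29 ± 0.13, with a 95% interval from -0.59 to 0.0131 (edgeR adjusted p = 0.223), and -0.15 without library 14. Both separations end with library totals as the scaling, where Aqp1 was 704 CPM in mild library 9 and 731 CPM in severe library 15, and Aqp7 was 27.5 CPM in mild library 7 and 28.6 CPM in severe library 15.

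The summed markers of the proximal tubule lay below the mild range in every severe library. All 12 had a negative fold change, 0 passed after adjustment, and their median log2 fold change was -0.51 (-0.28 without library 14). In 9 of the 12 the severe values were all below the mild ones, against 16.1% of all tested genes. Set against the sum of these markers, which makes the value independent of the scaling, Aqp1 came to 4.23%, 4.15% and 3.61% of it in the mild libraries, by number, while the severe ones gave 3.92%, 5.17% and 4.62%. For Aqp7 the mild libraries gave 0.153%, 0.147% and 0.155%, and the severe ones 0.154%, 0.214% and 0.181%. On this scale the groups overlapped for both genes, and library 14 was the highest.

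Transcripts of the vasopressin receptor were almost uncounted. Avpr2 (ENSMUSG00000031390, plus strand of chromosome X from 73892102 to 73895502) had 3, 3 and 4 reads in mild libraries 7, 8 and 9 and 1, 3 and 7 in severe libraries 13, 14 and 15, and was left out of the test by the filter on low counts. A gene with no read could have up to 3, which is 0.169 to 0.207 CPM here, so no fold is given. In GENCODE M21, 81.3% of the exon bases of Avpr2 lie under exons of Arhgap4, a gene on the opposite strand. Of the 50-base stretches of its longest transcript, 76.9% occur in an Arhgap4 transcript on one strand or the other. Arhgap4, looked up after these counts were seen, had 140, 169 and 149 reads in the mild and 193, 221 and 194 in the severe libraries. The sources used here do not give the strand and overlap settings of the counting, and how many Avpr2 reads went to Arhgap4 or were dropped was not tested. The count of the receptor is given with that limit.

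Aqp2, the channel that vasopressin moves to the apical membrane, showed a spread among the mild kidneys wider than the difference between the groups. This gene (ENSMUSG00000023013, plus strand of chromosome 15 from 99579056 to 99584545) stood at 226, 162 and 139 CPM in mild libraries 7, 8 and 9 and at 197, 128 and 154 CPM in severe libraries 13, 14 and 15. The highest mild library was 1.63 times the lowest, while the severe mean was 0.907 of the mild mean. This was a log2 fold change of -0.14 ± 0.21, with a 95% interval from -0.63 to 0.35 (edgeR adjusted p = 0.696), and it was 0.0865 without mild library 7 and 0.0108 with library totals as the scaling.

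Promoters from RefSeq (GRCm38.p6, 250 bases before the transcript start, on the gene's strand) are shown for Aqp2, the known target of vasopressin signalling, for Slc6a12, a known target of Nfat5, and for Aqp7, the member with a match to the Nfat5 core. Cyclic AMP, the second messenger of Avpr2, acts on Aqp2 through a cAMP response element, and Nfat5 binds the TGGAAA core of the tonicity element, for which the betaine transporter gene Slc6a12 is the textbook case. Capitals mark TGACG (cAMP element core), AGATA (GATA factor core), TATAAA and TGGAAA, each searched on both strands, so that a match on the other strand is seen as its reverse complement. The capitals do not overlap in these 3 sequences.
Aqp2, chr15:99578806-99579055, plus strand: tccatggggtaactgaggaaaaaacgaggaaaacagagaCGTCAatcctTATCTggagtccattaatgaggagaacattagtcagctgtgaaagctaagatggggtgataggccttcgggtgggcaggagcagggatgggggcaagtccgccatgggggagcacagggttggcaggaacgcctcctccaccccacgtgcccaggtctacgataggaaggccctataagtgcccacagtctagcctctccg
Aqp7, chr4:41048137-41048386, minus strand: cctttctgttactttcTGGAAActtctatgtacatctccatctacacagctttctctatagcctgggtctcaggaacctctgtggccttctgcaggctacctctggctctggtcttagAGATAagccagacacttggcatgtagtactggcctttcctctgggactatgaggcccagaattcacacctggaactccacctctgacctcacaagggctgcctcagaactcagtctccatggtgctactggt
Slc6a12, chr6:121342324-121342573, plus strand: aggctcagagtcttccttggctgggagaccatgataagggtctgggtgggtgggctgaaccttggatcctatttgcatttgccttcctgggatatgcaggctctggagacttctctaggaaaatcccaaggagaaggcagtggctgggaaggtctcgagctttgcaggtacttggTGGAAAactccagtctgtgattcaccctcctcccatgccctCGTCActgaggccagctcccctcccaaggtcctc
The Aqp2 promoter held TGACG and AGATA, both on the opposite strand, at 211 and 201 bases before the start. TGGAAA was found 234 bases before the first of 2 listed starts of Aqp7 and 75 bases before the first of 5 listed starts of Slc6a12. Among all 32851 promoters, 21.4% hold TGGAAA, 20.8% hold TGACG, 29.6% hold AGATA and 13.6% hold TATAAA in the window of 250 bases before and 50 bases after the start. A match is a match of letters only. The table matched 7 of the 10 members, and of these Aqp7 was the member with a TGGAAA in the window. Slc5a3, a known target of Nfat5, had no match to any of the 4 motifs there.

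On the basolateral side of the same cells, Aqp3 (ENSMUSG00000028435, minus strand of chromosome 4 from 41092722 to 41098183), which also passes glycerol, was even among mild kidneys and uneven among severe ones. It stood at 101, 99.6 and 92.7 CPM in mild libraries 7, 8 and 9 and at 104, 56.0 and 75.7 CPM in severe libraries 13, 14 and 15. Libraries 14 and 15 were below all mild libraries and library 13 was above them. The log2 fold change was -0.31 ± 0.20, with a 95% interval from -0.77 to 0.14 (edgeR adjusted p = 0.339). Without library 13 it was -0.56 and passed (edgeR adjusted p = 0.0202), in a fit where 21.5% of all tested genes passed, and without library 14 it was -0.12.

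Aqp4, the other basolateral water channel of the collecting duct (ENSMUSG00000024411, minus strand of chromosome 18 from 15389394 to 15403684), varied most among the mild kidneys. It stood at 21.0, 15.2 and 9.40 CPM in mild libraries 7, 8 and 9 and at 17.9, 13.8 and 10.8 CPM in severe libraries 13, 14 and 15. The severe values all lay within the mild range. The log2 fold change was -0.10 ± 0.29, with a 95% interval from -0.78 to 0.57 (edgeR adjusted p = 0.845), and it was 0.20 without mild library 7, 0.0596 without severe library 15 and 0.0590 with library totals as the scaling.

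Other markers of the principal cell, the vasopressin-sensitive cell of the collecting duct, were close to level between the groups. The 12 markers summed to 859 to 900.3 CPM in mild and to 862 to 902 CPM in severe libraries, their median log2 fold change was -0.0165, and the groups overlapped in all 12. Krt8, named here for its part in the sum, stood at 205 CPM in library 14 against 109 to 131 CPM in mild libraries. This raised the sum of library 14 and lowers the percentages taken against it. Against this sum, Aqp2 came to 25.95%, 18.05% and 16.1% in the mild libraries, by number, while the severe ones gave 22.9%, 14.3% and 17.0%. For Aqp3 the mild libraries gave 11.6%, 11.1% and 10.8%, and the severe ones 12.1%, 6.29% and 8.40%. The order of the libraries for each gene was kept on this scale in the mild kidneys, and libraries 14 and 15 stayed below the mild range for Aqp3.

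**Figure D2:**
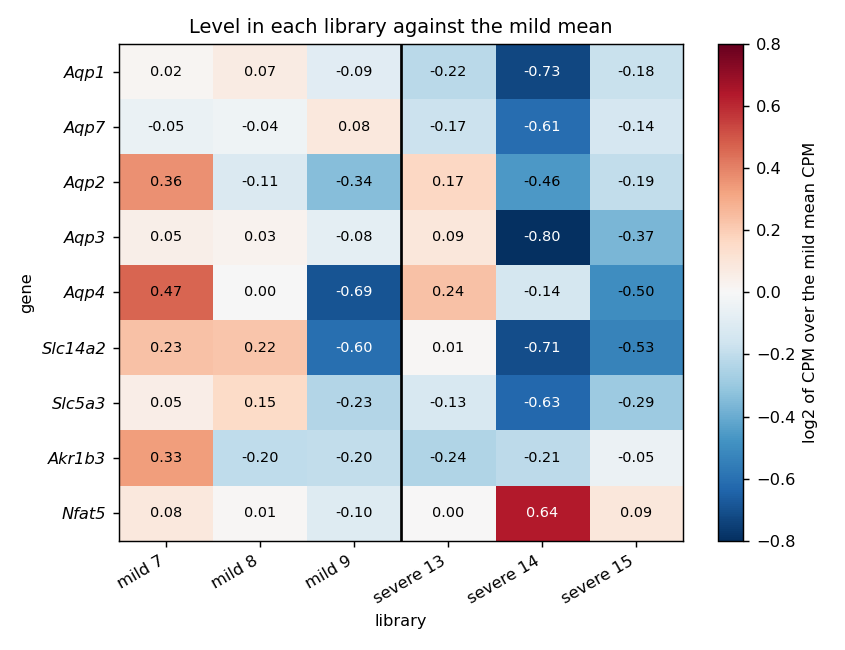
Level of each tested gene in each library (log2 of its CPM over the mean CPM of the mild libraries; red higher, blue lower; genes in rows, libraries in columns). Library 14 is the lowest severe library for Aqp1, Aqp7, Aqp2, Aqp3, Slc14a2 and Slc5a3 and the highest for Nfat5, and mild library 9 is the lowest mild library for Aqp4 at -0.69 and Slc14a2 at -0.60.

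Slc14a2, which encodes the urea transporters of the inner medullary collecting duct and the thin descending limb (ENSMUSG00000024552, minus strand of chromosome 18 from 78146940 to 78209094), stood at 58.4, 57.9 and 32.7 CPM in mild libraries 7, 8 and 9. In severe libraries 13, 14 and 15 it stood at 49.9, 30.4 and 34.4 CPM. Mild library 9 fell among the severe libraries. The log2 fold change was -0.38 ± 0.25, with a 95% interval from -0.97 to 0.21 (edgeR adjusted p = 0.366), and it did not pass with any library left out. Left-out libraries moved it from -0.61 (without 13) and -0.60 (without 9) to -0.24 (without 7 or 14) and -0.25 (without 8).

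Aqp4, Slc14a2, Aqp2 and Akr1b3 were among the more variable genes of the mild kidneys. Their SD of log2 CPM over the 3 mild libraries stood at the 97.1, 95.0, 90.4 and 87.4 percentile of all tested genes, against 38.4 for Aqp1, 35.5 for Aqp7 and 30.8 for Aqp3. Library 9 was the lowest mild library for 7 of the 9 members and library 7 the highest for 6, where 35.2% and 34.6% of all genes had that arrangement. For the principal cell markers the order depended on the measure. Their mean log2 CPM against the mild mean was 0.0526, -0.0552 and 0.00255 in mild libraries 7, 8 and 9, with library 8 lowest. Their summed CPM was 871, 900.3 and 859, with library 8 highest and library 9 lowest. Summed markers of papillary surface and urothelium came to 25.4, 7.96 and 11.1 CPM in mild libraries 7, 8 and 9 and to 13.2, 13.3 and 18.8 CPM in severe libraries 13, 14 and 15. There library 7 was the highest and library 8 the lowest. In mean log2 CPM against the mild mean, thin limb markers had 0.325, -0.105 and -0.219 in mild libraries 7, 8 and 9. Genes for salt and urea transport in the medulla had 0.0894, -0.0173 and -0.0721, and fibroblast markers 0.218, 0.0418 and -0.26. Library 7 was thus the highest and library 9 the lowest in these lists, though by summed CPM library 8 was the lowest for the medullary genes. Some lists had another order, such as proximal tubule markers with library 9 highest. Whether the kidneys held unequal shares of medulla was not tested.

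Slc5a3 and Akr1b3 supply organic osmolytes, the small solutes that balance the salt outside. Slc5a3, the sodium-coupled importer of myo-inositol (ENSMUSG00000089774, plus strand of chromosome 16 from 92058322 to 92087473), stood at 180.0, 193 and 148 CPM in mild libraries 7, 8 and 9 and at 159, 112 and 142 CPM in severe libraries 13, 14 and 15. Library 14 was the lowest, and library 13 lay inside the mild range. The log2 fold change was -0.33 ± 0.15, with a 95% interval from -0.69 to 0.0214 (edgeR adjusted p = 0.227). It was -0.21 without library 14 and -0.18 with library totals. Of its exon bases 1.5% are shared with Mrps6 on the same strand.

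Akr1b3, aldose reductase, which makes sorbitol from glucose (ENSMUSG00000001642, minus strand of chromosome 6 from 34303934 to 34317497), stood at 71.5, 49.3 and 49.6 CPM in mild libraries 7, 8 and 9. In severe libraries 13, 14 and 15 it stood at 48.0, 49.1 and 55.03 CPM. Library 7 stood above the other 5, which lay close together. The log2 fold change was -0.16 ± 0.15, with a 95% interval from -0.51 to 0.19 (edgeR adjusted p = 0.510), and 0.0411 without library 7. Of the 50-base stretches of its longest transcript, 6.89% also occur in transcripts of other genes, so a part of its reads is uncertain.

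Nfat5, the transcription factor that switches on osmolyte genes in hypertonic tissue (ENSMUSG00000003847, plus strand of chromosome 8 from 107293470 to 107379517), was the member with a positive fold change. It stood at 119, 113 and 105 CPM in mild libraries 7, 8 and 9 and at 113, 175 and 120.0 CPM in severe libraries 13, 14 and 15. Library 14 stood above the others, and library 13 lay inside the mild range. Its log2 fold change was 0.27 ± 0.17, with a 95% interval from -0.11 to 0.66 (edgeR adjusted p = 0.325), and 0.0486 without library 14. In library 14, where Nfat5 was highest, Slc5a3 was at its lowest and Akr1b3, at 49.1 CPM, lay between severe libraries 13 and 15.

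**Figure D3:**
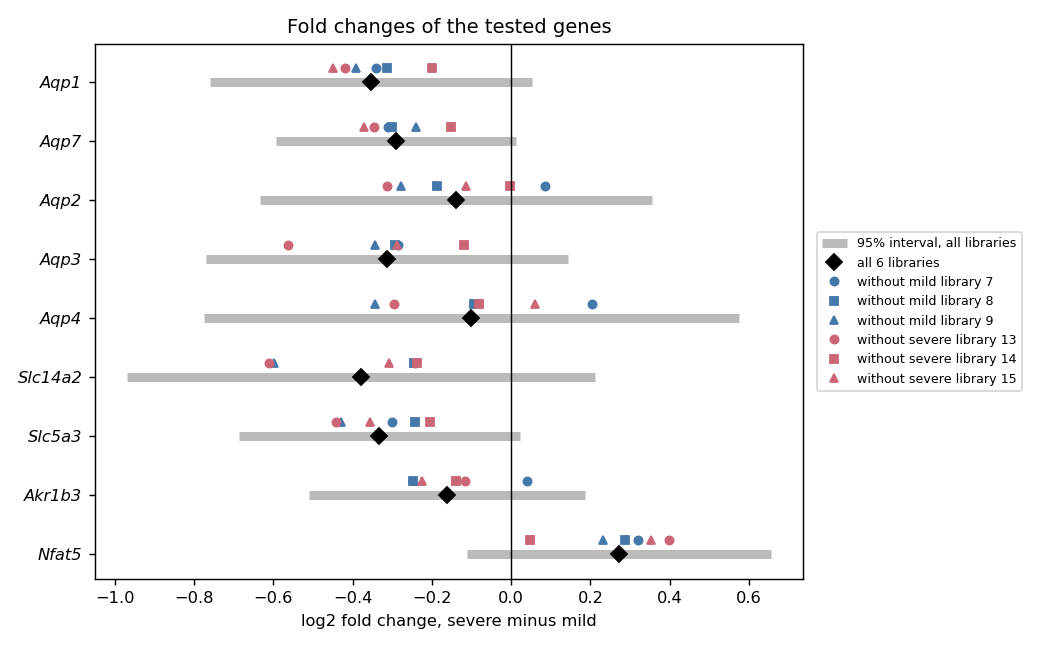
Log2 fold change (severe minus mild, x axis) of the 9 tested genes with all 6 libraries (black diamonds), its 95% interval (grey bars) and its value with each library left out (coloured symbols; blue, a mild library; red, a severe library). All 9 intervals include 0, and the value without mild library 7 lies above 0 for Aqp2, Aqp4 and Akr1b3.

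Per kilobase of the longest annotated transcript, which allows genes to be compared, the members fell over a wide range in mild kidneys. Aqp1 led with 302 ± 16.6 CPM per kilobase (SD, n = 3), followed by Aqp2 with 124 ± 31.8 and Aqp3 with 55.4 ± 2.53, and none of these ranges overlapped its neighbour in either group. Slc5a3 (15.9 ± 2.13), Slc14a2 (12.3 ± 3.64), Aqp7 (11.9 ± 0.629) and Akr1b3 (11.3 ± 2.54) came next, and each of these overlapped the one beside it. Nfat5 followed with 8.37 ± 0.535 CPM per kilobase in mild and 10.1 ± 2.53 in severe kidneys, where it overlapped Akr1b3. Aqp4 stood at 3.001 ± 1.14 CPM per kilobase, and Avpr2 was last at 0.0791 ± 0.0175, with the limit of its count given above.

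Of the 7 other aquaporin genes, 3 had enough counts to be tested and 0 passed. Aqp11, an aquaporin of the endoplasmic reticulum of proximal tubule cells, stood at 44.7, 47.3 and 46.3 CPM in mild libraries 7, 8 and 9 and at 39.6, 19.7 and 35.8 CPM in severe libraries 13, 14 and 15. The groups did not overlap, and the log2 fold change was -0.54 ± 0.22 (edgeR adjusted p = 0.201). It was -0.29 without library 14, and -0.73 without library 13, where it passed (edgeR adjusted p = 0.0466). Against the summed proximal tubule markers it came to 0.236%, 0.237% and 0.224% in the mild and 0.228%, 0.213% and 0.237% in the severe libraries. Aqp6, a channel of intercalated cell vesicles, had a log2 change of -0.27 ± 0.13 (edgeR adjusted p = 0.228) and Aqp8 one of -0.11 ± 0.34 (edgeR adjusted p = 0.850). Aqp6 also passed without library 13 (-0.40, edgeR adjusted p = 0.0326), and both Aqp6 and Aqp11 passed with quality weights (limma-voom adjusted p = 0.0155 and 0.0123). Of all tested genes, 21.5% passed without library 13 and 33.9% with quality weights. Aqp9 had 2, 3 and 1 reads in the mild and 4, 17 and 6 in the severe libraries, Aqp5 and Aqp12 had 5 reads or fewer in each library, and Mip had 0.

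Of 30 tested genes of vasopressin signalling and Aqp2 trafficking, 0 passed. In 3 of them the severe values were all above and in 3 all below the mild ones, which is 20.0% against 34.0% of all tested genes. The median log2 fold change was -0.0515, and 0.12 with library totals. Ptger4, a receptor for prostaglandin E2 coupled to cyclic AMP, stood at 4.27, 6.23 and 5.42 CPM in mild libraries 7, 8 and 9 and at 7.33, 14.01 and 11.5 CPM in severe libraries 13, 14 and 15. Its log2 fold change was 1.04 ± 0.26 (edgeR adjusted p = 0.0992). It passed with DESeq2 (adjusted p = 0.00792), in a fit where 7.87% of all tested genes passed. The adenylyl cyclase gene Adcy3 had a log2 change of 0.93 ± 0.26 (edgeR adjusted p = 0.112). Hspa8, a chaperone that binds Aqp2, averaged 2431 ± 24.4 CPM in mild and 1835 ± 35.2 CPM in severe libraries (SD, n = 3 each), and its log2 fold change was -0.41 ± 0.16 (edgeR adjusted p = 0.182). Markers of macrophages, cells that can also carry Ptger4, summed to 279 to 336 CPM in mild and 525 to 991 CPM in severe libraries, and their part in this value was not tested.

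Of 14 tested genes of osmolyte handling and Nfat5 response, 0 passed. In 4 the severe values were all above and in 3 all below the mild ones, which is 50% against 34.0% of all tested genes. The median log2 fold change was -0.0909, and 0.0733 with library totals. The small heat shock protein gene Hspb1 had a log2 change of 1.21 ± 0.33 (edgeR adjusted p = 0.109), with 19.4, 19.3 and 23.5 CPM in mild libraries 7, 8 and 9 and 24.8, 69.1 and 50.1 CPM in severe libraries 13, 14 and 15. Gdpd5, which breaks down the osmolyte glycerophosphocholine, had a log2 change of 0.53 ± 0.16 (edgeR adjusted p = 0.123) and the amino acid transporter gene Slc38a2 one of 0.67 ± 0.25 (edgeR adjusted p = 0.170). Slc6a12, named here for its promoter, averaged 1.85 ± 0.290 CPM (mild) and 1.96 ± 0.484 CPM (severe), with overlapping groups.

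Of 12 tested genes for salt and urea transport in the medulla, 0 passed, and 5 (41.7%) had severe values all below the mild ones and 0 all above, against 16.1% and 17.9% of all tested genes. The median log2 fold change was -0.33, and -0.16 without library 14. Kcnj1, the potassium channel of the thick ascending limb, stood at 206, 234 and 225 CPM in mild libraries 7, 8 and 9 and at 181, 123 and 160.5 CPM in severe libraries 13, 14 and 15. The groups did not overlap, and its log2 fold change was -0.51 ± 0.15 (edgeR adjusted p = 0.115). Bsnd, of the same list, had a log2 change of -0.64 ± 0.16 (edgeR adjusted p = 0.100). Beside the principal cell markers, the median was -0.48 for 8 thick ascending limb markers and -0.29 for 9 intercalated cell markers. It was 0.31 for 7 thin limb markers (0.15 without library 14), of which 6 had a positive fold change and 0 passed.

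**Figure D4:**
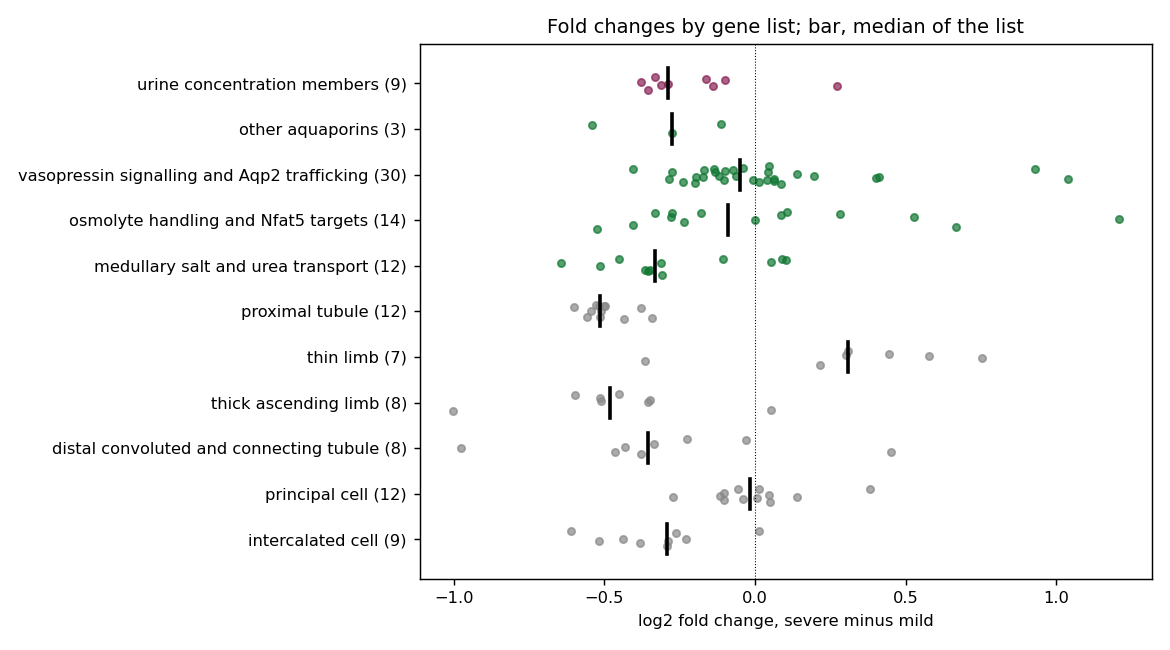
Log2 fold change (severe minus mild, x axis) of each tested gene, by gene list, with the number tested in brackets and the median as a bar (purple, the urine concentration genes; green, other pathway genes; grey, markers of tubule cells). The median of the urine concentration genes, -0.29, lies between those of the proximal tubule markers, -0.51, and the principal cell markers, -0.0165. Without library 14 these were -0.14, -0.28 and 0.0287. Lists with medians nearer to it with all libraries include intercalated cell markers (-0.29), other aquaporins (-0.27) and medullary transport genes (-0.33).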

How the data were processed

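Per the labels' protocols, TRIzol-extracted, DNase-treated kidney RNA was poly-T selected and randomly primed. The submitters' processing notes list mm10, HTSeq 0.6.1, TopHat2 2.0.12 and Bowtie2 2.2.3, and the sources used here do not give their roles, the strand setting or the annotation. The authors deposited raw counts of reads for each Ensembl gene. Columns were grouped by the minutes in their names; the library numbers there match none of the sample titles. All sample columns were used.

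Counts were filtered (filterByExpr), scaled by TMM and tested with edgeR 4.0.16 (quasi-likelihood, robust; R 4.3.3; threshold 0.05, Benjamini-Hochberg over 14883 genes). The standard error is the fold change over the root of F. Intervals use the fit's degrees of freedom, and count limits cover counting error only. Chi-square per degree of freedom between replicates was 3.67 to 5.34 (mild) and 14.2 to 70.04 (severe), above counting noise, so each was counted once; this does not show separate kidneys. Alternatives were other scalings, filters and dispersion, DESeq2 1.42.0, limma-voom (3.58.1) and each library left out. The pipeline was tested on simulated data. Members and lists were chosen with earlier results of these data known. The named genes are the members, the detected other aquaporins, the 3 genes with the smallest p in each pathway list, at most 2 genes of the highest CPM in a marker list, and the 3 genes most like Aqp1 and Aqp2; 1 gene that this rule names is not reported here. Lists were described by counts and medians, without a test. Lengths and overlaps come from GENCODE M21 and promoters from RefSeq. Figures were drawn with matplotlib.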

Additional observations from a re-analysis of the deposited data

How the results depend on the processing

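All 9 tested members missed the threshold in the full data, and 0 passed under other scalings, filters and dispersion, DESeq2 and limma-voom without weights, where at most 2 had an unadjusted p under 0.05. With sample quality weights 2 passed, Aqp3 (adjusted p = 0.0155) and Slc5a3 (0.0349), in a fit that called 33.9% of genes. With each library left out, 0 to 1 passed as lower (Aqp3 without library 13) and 0 as higher.

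Over all genes, 1 was called higher and 1 lower by edgeR. The counts were 134 and 12 without a filter, 1029 and 142 with DESeq2, 2706 and 2335 with quality weights, and 1 and 0 with library totals. With each library left out they ranged from 0 to 2093 higher and from 0 to 1176 lower. There were 0 without mild library 7, 8 or 9, where edgeR gave 2196, 2137 and 2345 genes at an unadjusted p under 0.05. Without library 13 there were 2093 and 1176, without library 14 there were 361 and 140, and without library 15 there were 1 and 0.

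Aqp1, Aqp3, Aqp7, Slc14a2, Slc5a3 and Nfat5 kept their sign in all 15 alternatives. Library totals moved the median of all genes to 0.17, and there the log2 fold change turned to 0.0108 for Aqp2, 0.0590 for Aqp4, 0.00611 for Akr1b3 and 0.0359 for Aqp8. Without single libraries the range was -0.31 to 0.0865 for Aqp2, -0.34 to 0.20 for Aqp4 (0.0596 without library 15) and -0.25 to 0.0411 for Akr1b3. Aqp8 was 0.0285 with quality weights and ranged from -0.33 to 0.14 without single libraries (0.0331 without library 7). Library totals leave out the TMM factors, which were 0.945, 0.943 and 0.945 in mild libraries 7, 8 and 9. In severe libraries 13, 14 and 15 the factors were 0.974, 1.17 and 1.04. The cause of this difference in factors, and of the changes under the other settings, was not tested. Of 59 tested genes of the pathway lists, other aquaporins included, 0 passed with edgeR. With DESeq2, 3 passed as lower and 3 as higher, where 7.87% of all tested genes passed. The counts were 16 and 7 with quality weights, where 33.9% of all tested genes passed. They were 10 and 6 without library 13 (21.5% of all tested genes), and 2 and 0 without library 14 (3.33%). With DESeq2 the named ones were Ptger4, Adcy3 (adjusted p = 0.0307) and Hspb1 (0.00571) as higher and Hspa8 (1.47e-06), Bsnd (0.0137) and Kcnj1 (0.0237) as lower. Scaling by library totals, looked at for overlap after the data were seen, left 0 members with groups apart. No paired analysis was possible because the column numbers match no label and mark no shared animal. With 3 kidneys in each group, the widest 95% interval of a member, that of Aqp4, runs from -0.78 to 0.57 on the log2 scale.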

Other observations

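The genes whose log2 CPM followed Aqp1 most closely over the 6 libraries were Dnaja4 (Pearson r = 0.998), Actr8 (0.997) and Kank1 (0.997), and those that followed Aqp2 were Tfb1m (0.998), Gm10076 (0.995) and Fam103a1 (0.988). They were picked from all tested genes by this value, and the 6 points share their libraries and scaling. Tfb1m stood at 7.58, 5.75 and 5.22 CPM in mild libraries 7, 8 and 9 and at 6.75, 4.78 and 5.53 CPM in severe libraries 13, 14 and 15, the order of libraries that Aqp2 had.

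The level of Aqp11 per kilobase depends on the gene model. It was 7.95 CPM per kilobase in mild kidneys with the longest transcript of GENCODE M21 (5798 bases) and 34.9 with the gene length of the deposited table (1322 bases). For Akr1b3 the values were 11.3 and 17.5, and for Slc14a2 12.3 and 17.8. With the table's lengths Slc14a2 and Akr1b3 stand above Slc5a3 (15.9) in mild kidneys, while Aqp1, Aqp2 and Aqp3 keep the first places among the members.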
